A study of Mus musculus with 16 samples.

Results

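A set of 9 genes that encode subunits of voltage-gated calcium channels were followed in neonatal mouse heart ventricle with and without LRRC10. They were chosen by name: Cacna1c, Cacna1d, Cacna1g and Cacna1h encode the pore-forming α1 subunits, Cacnb1, Cacnb2 and Cacnb3 the cytoplasmic β subunits, and Cacna2d1 and Cacna2d2 the extracellular α2δ subunits. All 9 of 9 were measured, out of 51912 genes in the table, and all 9 passed the filter on low counts that left 20159 genes to test. Bulk RNA-seq was made from full ventricles, taken above and below the ligature, in 4 groups of 4 libraries. WT SH and WT MI were wild-type C57BL/6J mice and KO SH and KO MI were whole-body Lrrc10-/- mice on a C57BL/6 background. At postnatal day 1 the mice underwent either a sham operation (SH), in which the heart was not exposed, or a myocardial infarction (MI) by ligation of the left anterior descending artery, and ventricles were collected 7 days after surgery. Sham and MI therefore differ in exposure of the heart as well as in the ligation.

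A calcium channel complex is built around 1 α1 subunit, which forms the pore and senses voltage. The L-type channels, with α1C or α1D, open on strong depolarization, and in ventricular cardiomyocytes the α1C channel carries the calcium that triggers release from the sarcoplasmic reticulum. The β and α2δ subunits bring the L-type complex to the surface membrane and tune its gating. The T-type channels, with α1G or α1H, open at more negative voltages, do not need these auxiliary subunits, and are known in the working ventricle as channels of fetal life and of hypertrophy, whereas after birth they belong mainly to the pacemaker and conduction system. LRRC10 is a cardiomyocyte protein that has been described as a partner of the α1C channel, which is why these genes are of interest in the Lrrc10-/- ventricle.

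The T-type genes carried the largest changes among the 9, so the 250 bases upstream of their start sites are shown, read from the GRCm39 genome at the canonical GENCODE transcript, 5′ to 3′ on the gene's strand, both on the minus strand. The Cacna1g stretch is chr11:94365231-94365480 and the Cacna1h stretch is chr17:25652765-25653014. Capitals mark 2 short motifs searched on both strands: GGGCGG, the GC box bound by SP1 (CCGCCC where it lies on the other strand), and TGACG, the core of the cAMP response element.
Cacna1g: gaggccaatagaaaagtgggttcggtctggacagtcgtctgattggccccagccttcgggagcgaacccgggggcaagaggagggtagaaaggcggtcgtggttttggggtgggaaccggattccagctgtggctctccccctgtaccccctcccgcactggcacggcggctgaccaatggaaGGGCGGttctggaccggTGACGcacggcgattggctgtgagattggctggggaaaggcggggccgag
Cacna1h: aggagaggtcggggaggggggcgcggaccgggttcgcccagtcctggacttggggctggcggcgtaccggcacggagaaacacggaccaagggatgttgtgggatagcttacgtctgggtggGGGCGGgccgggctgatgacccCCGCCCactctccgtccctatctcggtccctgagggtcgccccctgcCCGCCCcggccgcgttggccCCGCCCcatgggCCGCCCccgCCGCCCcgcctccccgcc

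The Cacna1g stretch held 1 GC box, 67 bases before the start site, and 1 TGACG, 50 bases before it. The Cacna1h stretch held 6 GC boxes and no TGACG on either strand. It also held 1 match to GCGGGGGCG, the site of the immediate-early factor EGR1, 26 bases before the start site and overlapping a GC box, whereas Cacna1g held none. Neither held the full element TGACGTCA. Their GC content was 64.4% and 75.2%, against a median of 56.4% over the upstream stretches of 14586 genes. Among those 14586, GGGCGG was found in 47.0%, TGACG in 21.8%, GCGGGGGCG in 3.17% and TGACGTCA in 1.93%. The 2 T-type genes thus both had a GC-rich start but not the same letters, and binding of any factor was not measured. A GC-rich start was not particular to them. Cacna1d had 86.8%, Cacnb3 76% and Cacnb1 70.4%, all with GC boxes. Cacna2d2, at 56.8%, also had a GC box, 24 bases before its start site. Cacna1c had 54.8%, Cacna2d1 54.4% and Cacnb2 39.2%, without a GC box.

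Total counts ranged from 33783874 to 57470159 per library, with the lowest in KO MI replicate 7. Lrrc10 had 27.5 to 35.6 CPM (counts scaled to a common library size after TMM normalization) in WT SH and 26.3 to 29.2 in WT MI, and 0 counts in all 8 KO libraries. Cardiomyocyte markers were abundant throughout, summing over 7 genes to 25391 to 36465 CPM in WT SH, 24145 to 25302 in KO SH, 24603 to 26241 in WT MI and 23450 to 25494 in KO MI. Xist, which is expressed from the inactive X chromosome in females, was above 500 CPM in 0 of 4 WT SH libraries and in 2 of 4 in each other group, although the groups are labelled sex-balanced. Skeletal muscle myosin Myh8 reached 42.3 CPM in replicate 2 and 58.5 in replicate 7 of KO MI and stood at 0.363 to 5.10 in the other 14 libraries. The 7 atrial markers summed to 2436 CPM in KO MI replicate 2 and to 881 in replicate 3, against 67.3 to 362 in the other 14, and Nppa alone made up nearly all of the first. Without Nppa the other 6 summed to 40.8 CPM in replicate 2 and 103.7 in replicate 3, and to 108.4 in WT SH replicate 2, so that they were not high in KO MI replicate 2. In bulk ventricle, fewer cells of a type and less RNA per cell cannot be told apart. The libraries are separate samples, and p-values measure the spread between them.

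In the sham-operated ventricle, KO had more transcript than WT of both T-type genes, of Cacna1d and of Cacnb2. The Cacna1d and Cacna1h calls were each kept in only 1 of 8 fits that left out 1 library. Xist was high in 0 of 4 WT SH and 2 of 4 KO SH libraries. The study bought its WT mice and does not describe them as littermates of the KO, so genotype and mouse line cannot be told apart. In KO SH against WT SH, 4 of the 9 genes were higher and 0 were lower at an adjusted p under 0.1 (edgeR quasi-likelihood test over 20159 genes, Benjamini-Hochberg), where 5.11% of all tested genes were higher and 7.22% lower. Of these, Cacna1g and Cacna1h also passed a log2 fold change of 0.5, the rule for a differentially expressed gene (DEG) met by 5.01% of all genes. The median log2 fold change was 0.17 over the 9 genes and 0.01 over all genes tested. In KO MI against WT MI, Cacna1g and Cacnb1 were higher and none was lower, and only Cacna1g was a DEG. The background there was 1.03% higher, 2.04% lower and 1.73% DEGs, and the medians were 0.08 over the 9 genes and 0.01 over all genes.

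**Figure D1:**
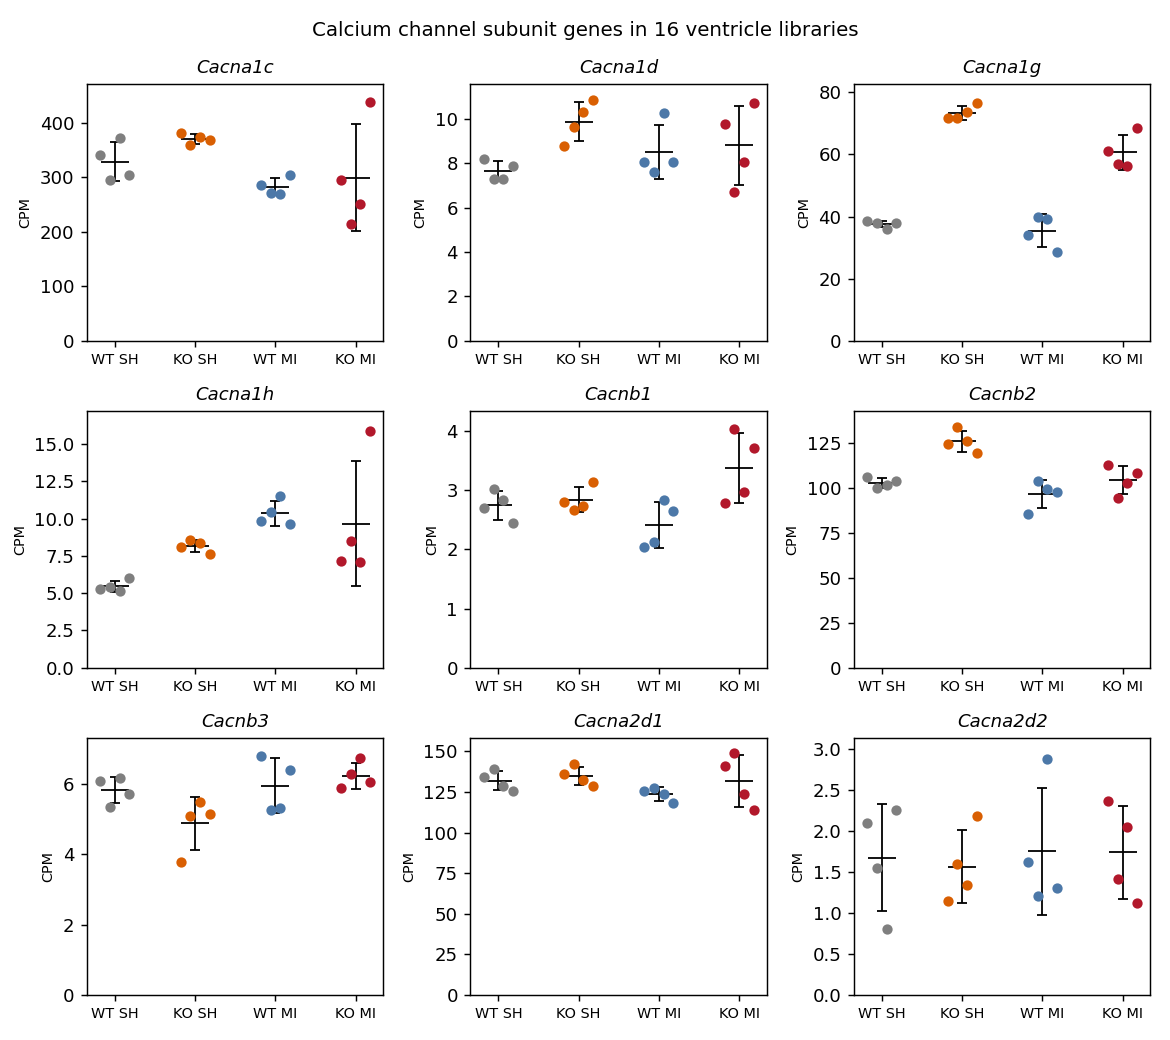
Level of each of the 9 genes in CPM in every library (points, 4 per group) with the group mean and SD (bars), each panel starting at 0. Cacna1g lies between 56.4 and 76.5 CPM in the 8 KO libraries and between 28.5 and 40.0 in the 8 WT libraries.

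Cacna1c (ENSMUSG00000051331; chr6:118564201-119173851 in GRCm39), the α1C pore of the L-type channel, had the highest level per length of the 9. It read 341, 296, 373 and 304 CPM in WT SH and 382, 359, 374 and 368 in KO SH. After MI it read 286, 271, 270.2 and 303 CPM in WT and 295, 214, 251 and 438 in KO, the last being replicate 7. The WT SH and KO SH libraries overlapped, and the KO MI libraries spread on both sides of WT MI. The log2 fold change was 0.17 in KO SH against WT SH (95% interval -0.13 to 0.48, adjusted p = 0.521) and 0.08 in KO MI against WT MI (-0.23 to 0.39, adjusted p = 0.888, both edgeR). Neither passed the test, and the intervals leave room for a rise of up to 0.48 on the log2 scale.

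From sham to MI, Cacna1c moved by -0.22 (log2, edgeR adjusted p = 0.497) in WT and by -0.31 (adjusted p = 0.190) in KO. Without KO MI replicate 7, its fall from KO SH to KO MI was -0.55 and passed edgeR at an adjusted p of 0.000702, in a fit that called 27.9% of all genes in that comparison against 17.5% with all libraries. Replicate 7 at 438 CPM lay above every KO SH library, and the other 3 lay below them all. The transcript of the channel that LRRC10 is known to modulate was thus not called different between the genotypes in either surgery, with or without that library.

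Cacna1d (ENSMUSG00000015968; chr14:29761896-30213412), the α1D pore of the L-type channel of pacemaker cells and atria, is expressed at a low level in ventricle. It had 8.19, 7.27, 7.29 and 7.86 CPM in WT SH and 8.77, 9.61, 10.3 and 10.8 in KO SH, so that every KO SH library lay above every WT SH library. The log2 fold change was 0.37 ± 0.13 (SE, n = 4 per group, edgeR adjusted p = 0.0863). The call was lost in 7 of the 8 fits that left out 1 library of the 2 groups, with adjusted p up to 0.213, and was kept only without KO SH replicate 1. After MI, Cacna1d had 8.05, 7.62, 10.3 and 8.06 CPM in WT and 9.76, 6.71, 8.04 and 10.7 in KO. These overlapped, and the log2 fold change was 0.05 (95% interval -0.22 to 0.31).

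Cacna1g (ENSMUSG00000020866; chr11:94299217-94365230), the α1G pore of the T-type channel, showed the largest difference between genotypes among the 9. It read 38.5, 37.9, 36.1 and 37.9 CPM in WT SH against 71.9, 71.7, 73.8 and 76.5 in KO SH. After MI it read 34.1, 40.0, 39.2 and 28.5 CPM in WT against 61.1, 56.9, 56.4 and 68.6 in KO. The lowest of the 8 KO libraries was above the highest of the 8 WT libraries. The log2 fold change was 0.97 ± 0.09 post-sham (SE, n = 4 per group, 1.95-fold, edgeR adjusted p = 2.86e-06) and 0.78 ± 0.09 post-MI (1.71-fold, edgeR adjusted p = 6.4e-05).

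Both Cacna1g calls held in each of the 8 fits that left out 1 library of the groups compared, with log2 fold changes of 0.95 to 0.98 post-sham and 0.68 to 0.84 post-MI. Among libraries with Xist at or under 500 CPM, Cacna1g ranged from 36.1 to 38.5 CPM in WT SH and from 73.8 to 76.5 in KO SH, a gap as wide as that over all libraries. Within the KO, Cacna1g was lower after MI than after sham by 0.27 (log2, edgeR adjusted p = 0.0438), a call lost without KO SH replicate 4, KO MI replicate 2 or KO MI replicate 3, with adjusted p of 0.110 to 0.128. In WT the same change was -0.08 (adjusted p = 0.681).

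Cacna1h (ENSMUSG00000024112; chr17:25593259-25652764), the α1H pore of the T-type channel, followed another pattern, with its largest difference between WT MI and WT SH. It read 5.27, 5.43, 5.12 and 5.998 CPM in WT SH and 9.84, 10.4, 11.5 and 9.62 in WT MI, with no overlap. Its log2 fold change of 0.92 ± 0.19 in WT MI against WT SH (SE, n = 4 per group, 1.90-fold, edgeR adjusted p = 0.0136) was the only call among the 9 in that comparison, and held in all 8 fits that left out 1 library. In WT MI against WT SH, 3.11% of all genes were higher, 2.21% lower and 2.78% DEGs. The median of the 9 genes there was -0.08 on the log2 scale, and that of all genes was -0.004. Xist was high in 0 of 4 WT SH and in 2 of 4 WT MI libraries. Among libraries with Xist at or under 500 CPM, Cacna1h ranged from 5.12 to 5.998 CPM in WT SH and from 9.84 to 11.5 in WT MI.

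In KO SH, Cacna1h read 8.07, 8.59, 8.39 and 7.61 CPM, all above WT SH and all below WT MI. Its log2 fold change in KO SH against WT SH was 0.58 ± 0.19 (SE, n = 4 per group, 1.497-fold, edgeR adjusted p = 0.0698). This call was lost in 7 of the 8 fits that left out 1 library, with adjusted p up to 0.165, and was kept only without WT SH replicate 4. In KO MI, Cacna1h read 7.14, 8.47 and 7.11 CPM in replicates 1, 2 and 3 and 15.9 in replicate 7. Thus 3 of the 4 KO MI libraries lay below every WT MI library, and the other lay above them all.

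With all libraries, Cacna1h did not pass the test between KO MI and WT MI (log2 fold change -0.11, 95% interval -0.49 to 0.27, edgeR adjusted p = 0.877). Without KO MI replicate 7, it was lower in KO MI by 0.45 (adjusted p = 0.00732), and with replicates 2 and 7 both left out by 0.54 (adjusted p = 0.00465). These fits called 6.13% and 2.68% of all genes in that comparison, against 3.07% with all libraries. Replicate 7 had the highest Cacna1h, Cacna1c, Cacna1d and Cacna1g of the KO MI libraries and the lowest total count. It also had the highest Myh8, and the part of these features in its Cacna1h level was not tested.

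**Figure D2:**
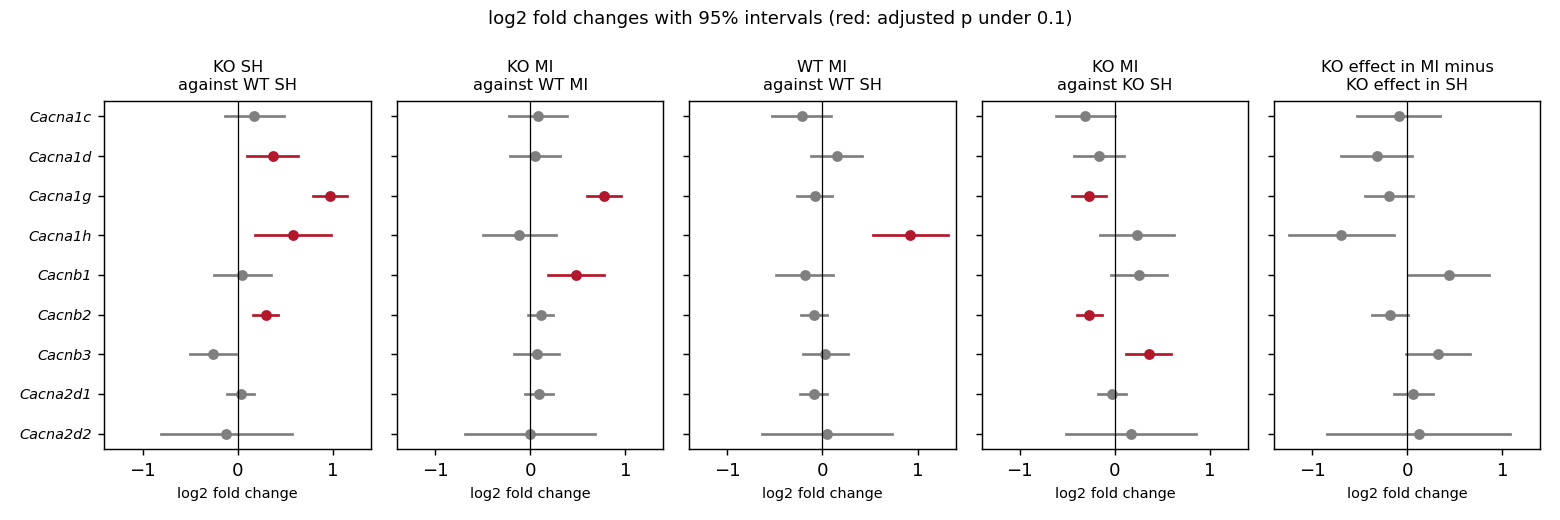
log2 fold changes of the 9 genes (points) with 95% intervals (lines) from the edgeR fit, in 4 comparisons and in the interaction of genotype with surgery, all on the same axis, red where the adjusted p was under 0.1. Cacna1g is red and to the right in both KO against WT panels (0.97 and 0.78), Cacna1h is red in KO SH against WT SH (0.58) and in WT MI against WT SH (0.92), and nothing is red in the last panel.

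Whether the KO effect differed between the surgeries was tested as an interaction. None of the 9 genes passed, and DESeq2 also called 0. An unadjusted p under 0.05 was found in 2 (Cacna1h and Cacnb1), a threshold at which all genes were not counted. The background at an adjusted p under 0.1 was 0.0248% of all genes, in either direction (5 genes), and it rested on single libraries and on the tool. It was 9.02% (1818 genes) without KO MI replicate 7, 0.997% (201) without WT SH replicate 4 and 2.83% (571) in DESeq2. For Cacna1g the KO effect post-MI minus that post-sham was -0.19 (log2, 95% interval -0.44 to 0.06, edgeR adjusted p = 0.506), so the 2 rises were not shown to differ. For Cacna1h it was -0.69 (-1.25 to -0.14, adjusted p = 0.265). Without KO MI replicate 7 the Cacna1h interaction was -1.03 with an adjusted p of 0.000778, and without replicates 2 and 7 it was -1.12 with an adjusted p of 0.000262, in a fit that called 3.89% of all genes. For Cacnb1 it was 0.44 (0.02 to 0.86, adjusted p = 0.349).

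Of the β subunits, Cacnb2 (ENSMUSG00000057914; chr2:14607899-14994127), the main β of the cardiac L-type channel, rose in KO SH. It read 106, 99.9, 101 and 104 CPM in WT SH and 124, 134, 126 and 119 in KO SH, with no overlap. The log2 fold change was 0.29 ± 0.06 (SE, n = 4 per group, 1.22-fold, edgeR adjusted p = 0.00953), and the call held in all 8 fits that left out 1 library. After MI it read 85.6, 104, 99.4 and 97.7 CPM in WT and 113, 94.3, 103 and 108 in KO, which overlapped (log2 fold change 0.11, 95% interval -0.02 to 0.25). From KO SH to KO MI it fell by 0.27 on the log2 scale (edgeR adjusted p = 0.0116), in all 8 such fits as well.

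Cacnb1 (ENSMUSG00000020882; chr11:97892204-97913860) encodes the β subunit best known from skeletal muscle. It read 2.69, 3.02, 2.83 and 2.44 CPM in WT SH, 2.80, 2.67, 2.73 and 3.15 in KO SH, and 2.04, 2.13, 2.83 and 2.65 in WT MI. In KO MI it read 2.79, 4.04, 2.97 and 3.72, the 2 highest values being those of replicates 2 and 7. Relative to WT MI it was higher by 0.48 on the log2 scale ± 0.14 (SE, n = 4 per group, edgeR adjusted p = 0.0982), and the groups overlapped.

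Replicates 2 and 7 are also the libraries in which Myh8 was high. Of the 12 skeletal muscle markers, 9 could be tested, and 4 were higher and 0 lower in KO MI against WT MI (1.03% and 2.04% of all genes). The 12 summed to 378 to 732 CPM in KO MI and to 342 to 404 in WT MI, a sum in which genes that cardiomyocytes also express weigh most. With both libraries left out the Cacnb1 change was 0.25 (adjusted p = 0.581), and with a skeletal muscle marker score in the fit it was 0.26 (adjusted p = 0.717). These fits called 2.68% and 0.918% of all genes in that comparison, against 3.07% with all libraries and no score. The Cacnb1 call was also lost without WT MI replicate 1, 2 or 4 and without KO MI replicate 2 or 7 alone. The part of skeletal muscle in the Cacnb1 level was not tested beyond these fits. Cacna1s, the α1S pore of the skeletal muscle L-type channel, read 1.24, 1.93, 1.04 and 3.24 CPM in KO MI and 1.51, 1.70, 1.12 and 1.56 in WT MI.

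**Figure D3:**
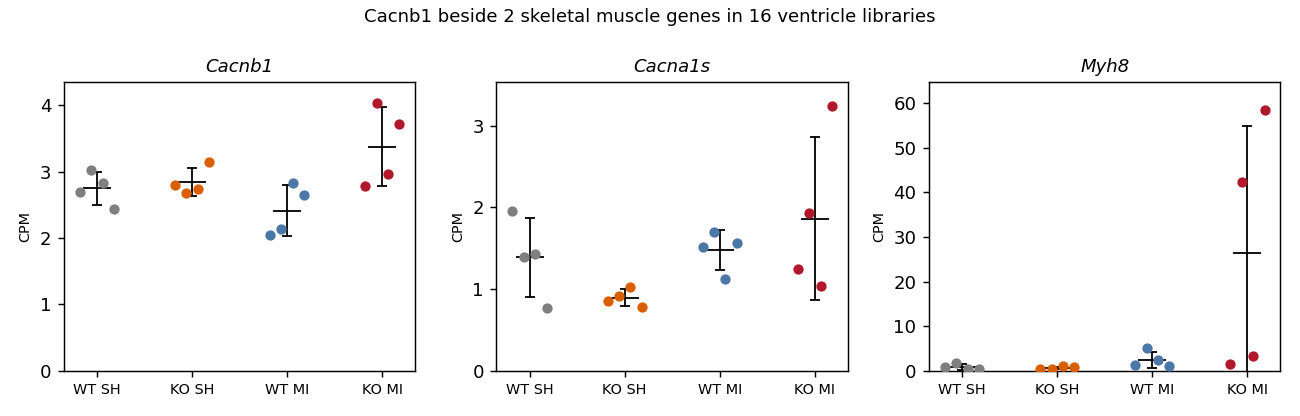
CPM of Cacnb1 and of the skeletal muscle genes Cacna1s and Myh8 in every library (points in replicate order within a group) with the group mean and SD, each panel starting at 0. In KO MI replicates 2 and 7 are the highest for all 3 genes (Cacnb1 4.04 and 3.72, Myh8 42.3 and 58.5 CPM).

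Cacnb3 (ENSMUSG00000003352; chr15:98528721-98542417), a β subunit of neurons and smooth muscle, read 6.08, 5.35, 6.18 and 5.71 CPM in WT SH and 3.79, 5.10, 5.49 and 5.14 in KO SH. The log2 fold change of -0.26 missed the threshold (95% interval -0.50 to -0.02, edgeR adjusted p = 0.189). After MI it read 6.81, 5.27, 5.31 and 6.41 CPM in WT and 5.88, 6.28, 6.73 and 6.05 in KO (log2 fold change 0.07). Every KO MI library was above every KO SH library, and that difference of 0.35 passed edgeR (adjusted p = 0.0519). It was lost without KO SH replicate 1, KO MI replicate 2 or KO MI replicate 3, with adjusted p of 0.113 to 0.166.

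Cacna2d1 (ENSMUSG00000040118; chr5:16139372-16579509), the main cardiac α2δ subunit and the binding site of gabapentin, differed little between the groups. It ranged from 126 to 139 CPM in WT SH, from 129 to 142 in KO SH, from 118 to 127 in WT MI and from 114 to 149 in KO MI. Its log2 fold changes were 0.03 (95% interval -0.11 to 0.18) in KO SH against WT SH and 0.09 (-0.05 to 0.24) in KO MI against WT MI, so that neither interval goes beyond 0.24 in size. Cacna2d2 (ENSMUSG00000010066; chr9:107276811-107406543), an α2δ subunit of neurons and of the atria, was read at 0.801 to 2.88 CPM over all 16 libraries, from as few as 28 counts. Its log2 fold change in KO SH against WT SH was -0.12, with an interval of -0.81 to 0.57, which leaves a difference in either direction open. Its libraries varied widely within a group, with an SD of 39.1% of the mean in WT SH and 28.6% in KO SH.

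In KO MI against KO SH, 1 of the 9 genes was higher (Cacnb3), 2 were lower (Cacna1g and Cacnb2) and 0 were DEGs. In that comparison 10.2% of all genes were higher, 7.32% lower and 7.42% DEGs, and the median of the 9 genes was -0.03 against -0.01 over all genes. With the skeletal muscle marker score in the fit, 0 of the 9 passed there, and the calls over all genes fell from 3536 to 296. Markers in the score differed between KO MI and KO SH themselves, Acta1 and Myh8 without overlap. The score therefore takes up part of the comparison, and a call lost with it decides nothing. The log2 fold changes in that fit were -0.38 for Cacna1g, -0.22 for Cacnb2 and 0.39 for Cacnb3, against -0.27, -0.27 and 0.35 without the score. Markers of cell types moved in the same comparison: 6 of 7 macrophage, 4 of 8 fibroblast, 7 of 9 tested skeletal muscle and 7 of 7 erythroid markers were higher, and 0 of each lower. Of 7 cardiomyocyte markers 3 were higher and 0 lower, and of 7 endothelial markers 0 were higher and 3 lower. Others moved both ways: smooth muscle (3 higher and 2 lower of 7), nerve (1 and 2 of 5 tested) and atrial markers (2 and 1 of 6 tested). The part of cell content in the changes of Cacnb3, Cacna1g and Cacnb2 was not tested beyond the skeletal muscle score.

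Levels of different genes were compared as CPM per kilobase of exon sequence, taken over all annotated exons. In WT SH the mean was 14.7 for Cacna1c, 7.02 for Cacnb2, 5.97 for Cacna2d1, 3.63 for Cacna1g and 1.15 for Cacnb3, and no library ranges of neighbours in that order overlapped. Below these, Cacna1d at 0.504, Cacna1h at 0.498 and Cacnb1 at 0.478 overlapped with each other, and Cacna2d2 was lowest at 0.211. In KO SH, Cacna1g at 7.10 moved above Cacna2d1 at 6.10, without overlap of their libraries. On the length of the canonical transcript alone it stayed at rank 4, so this order depends on which exons are counted. In KO MI, Cacna2d1 at 5.97 and Cacna1g at 5.87 overlapped.

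Among the 4 pore genes, the T-type share of transcript was higher in KO. Of the summed CPM per kilobase, Cacna1g made up a mean of 18.9% in WT SH (16.5% to 20.5% over libraries) and 28.3% in KO SH (27.4% to 29.2%). After MI it made up 19.5% in WT (15.5% to 22.2%) and 29.2% in KO (23.4% to 33.8%), again without overlap. Cacna1c made up 75.9% in WT SH and 66.1% in KO SH, although its own level was not called different, since a share falls when another gene rises. The Cacna1h share was 2.59% in WT SH, 2.97% in KO SH, 5.38% in WT MI and 4.17% in KO MI. These shares depend on which exons are counted: on the length of the canonical transcript, Cacna1g made up 8.17% in WT SH, 13.2% in KO SH, 8.69% in WT MI and 13.9% in KO MI, again with no overlap between the genotypes in either surgery. Counted as reads, there were 11.6 Cacna1g counts per 100 of Cacna1c in WT SH, 19.8 in KO SH, 12.7 in WT MI and 21.4 in KO MI.

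**Figure D4:**
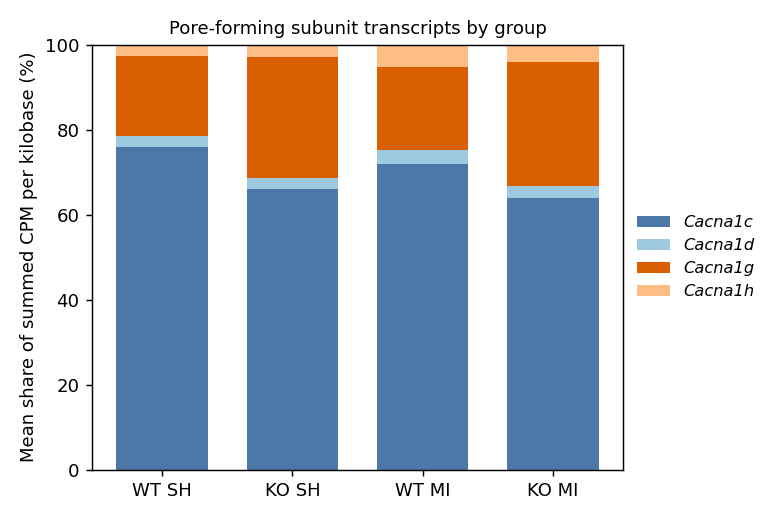
Mean share (%) of each pore-forming gene in the summed CPM per kilobase of the 4 pore genes, stacked to 100, 1 bar per group (mean of 4 libraries), with length taken over all annotated exons. The Cacna1g band is 18.9% and 19.5% in WT SH and WT MI and 28.3% and 29.2% in KO SH and KO MI (8.17%, 8.69%, 13.2% and 13.9% on the canonical length).

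A further 17 genes of the channel family were read for context, and 10 of them could be tested. None passed in KO SH against WT SH (median log2 fold change -0.26, with Cacna1a, the neuronal P/Q-type pore, at an unadjusted p of 0.0142 and an adjusted p of 0.109 in edgeR). In that comparison 2 of the 10 had an unadjusted p under 0.05, a threshold at which all genes were not counted. DESeq2 called 1 of the 10, and 14.4% of all genes. Cacng6, a γ subunit of the muscle channel, fell in KO MI. It read 1.32, 0.197, 0.463 and 0.990 CPM in KO MI against 2.502, 1.08, 2.32 and 2.85 in WT MI. The groups overlapped, the lowest library held 10 counts, and the log2 fold change was -1.57 ± 0.38 (SE, n = 4 per group, edgeR adjusted p = 0.0424). Its call was lost without WT MI replicate 1, 3 or 4 or KO MI replicate 3, with adjusted p up to 0.135. Cacna1s was higher in KO MI than in KO SH by 1.03 (adjusted p = 0.0423), a call lost without KO MI replicate 7 (0.64, adjusted p = 0.105) or KO SH replicate 4 (0.98, adjusted p = 0.104). The change of Cacna1s was 0.34 (adjusted p = 0.515) without KO MI replicates 2 and 7 and 0.097 (adjusted p = 0.923) with the skeletal muscle marker score in the fit. Markers in that score were themselves higher in KO MI than in KO SH, so the loss with the score decides nothing.

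Of 33 regulators of the channel, 32 could be tested, and 2 were higher and 7 lower in KO SH against WT SH (median -0.08). Over all genes tested, 5.11% were higher and 7.22% lower there. Among the regulators the largest changes were in the RGK GTPases Rrad and Gem, small GTP-binding proteins that bind the β subunit and restrain L-type current. Rrad read 31.1, 29.0, 24.1 and 20.1 CPM in WT SH and 11.1, 10.7, 12.2 and 11.4 in KO SH. After MI it read 26.2, 21.5, 18.98 and 19.6 CPM in WT and 11.6, 11.5, 11.6 and 11.4 in KO. The 8 KO libraries lay within 10.7 to 12.2 CPM and the 8 WT libraries were all above them. The log2 fold change was -1.20 ± 0.12 post-sham (SE, n = 4 per group, edgeR adjusted p = 7.8e-06) and -0.90 ± 0.12 post-MI (edgeR adjusted p = 0.000395).

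Gem read 7.23, 7.89, 4.23 and 5.85 CPM in WT SH and 1.65, 2.48, 2.55 and 2.57 in KO SH. After MI it read 3.55, 3.83, 3.51 and 4.08 CPM in WT and 2.74, 2.22, 2.04 and 2.25 in KO. It was lower in KO by 1.45 on the log2 scale post-sham (edgeR adjusted p = 9.61e-05) and by 0.69 post-MI (adjusted p = 0.0517), and it was also lower in WT MI than in WT SH by 0.75 (adjusted p = 0.0218). The post-MI call was lost in 4 of 8 fits that left out 1 library, with adjusted p of 0.101 to 0.145. Rrad kept its call in both KO comparisons in all 8 such fits. The third measured RGK gene, Rem1, went the other way in KO SH, by 0.32 (adjusted p = 0.0576), a call lost without WT SH replicate 1 or 2 or KO SH replicate 3 or 4 (adjusted p up to 0.156).

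**Figure D5:**
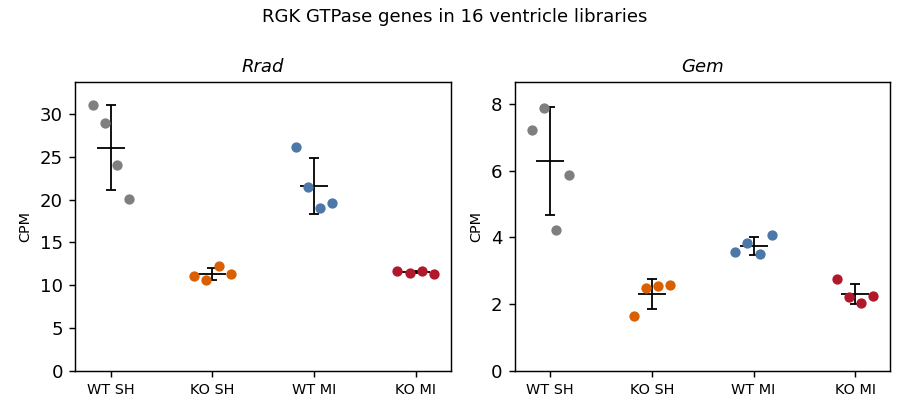
CPM of the RGK GTPase genes Rrad and Gem in every library (points) with the group mean and SD, each panel starting at 0. In both panels all KO libraries lie below the WT libraries of the same surgery, with Rrad between 10.7 and 12.2 CPM in the 8 KO libraries.

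Calm2 and Calm3 encode calmodulin, the calcium sensor on the L-type pore, and both were lower in KO SH, Calm2 by 0.43 (log2, edgeR adjusted p = 0.0324) and Calm3 by 0.29 (adjusted p = 0.0428). Calm2 read 113.8 to 188.5 CPM in WT SH and 98.3 to 110.4 in KO SH, without overlap. In KO MI against WT MI their log2 fold changes were 0.01 and -0.06, and neither passed. Without WT SH replicate 1, the highest library for Calm2, that gene had a log2 fold change of -0.24 (adjusted p = 0.0643). The Calm3 call was lost without WT SH replicate 1 (adjusted p = 0.155) or KO SH replicate 1 or 4 (adjusted p of 0.101 and 0.102). Actn2 and Jph2, structural proteins of the Z-disc and of the dyad where the channels sit, were lower in KO SH by 0.30 and 0.23 (adjusted p of 0.0243 and 0.0172). The anchor Akap6 was lower by 0.22 (adjusted p = 0.0372) and the ubiquitin ligase Nedd4l higher by 0.23 (adjusted p = 0.0972). The Akap6 call was lost without WT SH replicate 1 or KO SH replicate 4 (adjusted p of 0.124 for each), and that of Nedd4l in all 8 fits that left out 1 library. Of the 7 cardiomyocyte markers, 5, Actn2 among them, were also lower in KO SH, where 7.22% of all genes were lower. The T-type genes, Cacna1d and Cacnb2 were higher in KO SH. The part of cell content in the changes of the regulators and of these channel genes was not tested.

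After MI, with KO set against WT, 0 regulators were higher and 2, Rrad and Gem, were lower, where 1.03% of all genes were higher and 2.04% lower. In WT MI against WT SH 1 regulator was higher and 3 were lower (3.11% and 2.21% of all genes). Akap5, an anchor of protein kinase A at the channel, was among the lower. It read 13.4 to 15.1 CPM in WT SH and 7.78 to 9.38 in WT MI (log2 fold change -0.72, edgeR adjusted p = 0.00216). In KO MI against KO SH 4 regulators were higher and 3 lower (10.2% and 7.32% of all genes). In the interaction 0 of 32 passed edgeR (0.0248% of all genes). An unadjusted p under 0.05 was found in 8, but all genes were not counted at that threshold, so this number has no background. DESeq2 called 3 in the interaction, and 2.83% of all genes.

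Among the genes that release and remove calcium inside the cell, 15 were tested, and 0 were higher and 3 lower in KO SH against WT SH, where 7.22% of all genes were lower: Hrc and Casq2, calcium-binding proteins of the sarcoplasmic reticulum, by 0.51 and 0.41 (log2, edgeR adjusted p of 0.0692 and 0.0342), and the plasma membrane calcium pump Atp2b1 by 0.29 (adjusted p = 0.00158). Without WT SH replicate 1, Hrc was lower by 0.34 (adjusted p = 0.256) and Casq2 by 0.34 (adjusted p = 0.124), and neither passed. The Hrc call was also lost without any 1 of the 4 KO SH libraries (adjusted p of 0.133 to 0.138). Post-MI, 0 of the 15 passed edgeR in KO against WT, and DESeq2 also called 0. An unadjusted p under 0.05 was found in 3, but all genes were not counted at that threshold. Ryr2, the release channel, had log2 fold changes of -0.14 and -0.05 in the 2 KO comparisons, and Atp2a2, the SERCA pump, -0.10 and -0.20.

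Because T-type channels are known as fetal ventricular channels, 10 other genes of the fetal ventricle were read beside them. In KO SH against WT SH, 2 were higher and 1 lower, where 5.11% of all genes were higher and 7.22% lower. Tnni1, slow skeletal troponin I, the fetal isoform, read 66.1 to 88.1 CPM in WT SH and 131 to 140 in KO SH (log2 fold change 0.82, edgeR adjusted p = 0.00741). Hcn4, the pacemaker channel, read 3.92 to 5.67 CPM in WT SH and 6.78 to 7.61 in KO SH (0.58, adjusted p = 0.00676). Hcn4 was higher in KO MI as well, by 0.47 (adjusted p = 0.0484), a call lost without WT MI replicate 1 or 4 or KO MI replicate 2 (adjusted p up to 0.165). Acta1, skeletal α-actin, was lower in KO SH by 1.67 (adjusted p = 0.0467), and this call was lost without WT SH replicate 2 or KO SH replicate 1 (adjusted p of 0.137 and 0.135).

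The other 7 did not pass post-sham, and the median of the 10 was -0.004 on the log2 scale. In KO MI against WT MI, 3 of the 10 were higher and 0 lower, where 1.03% of all genes were higher and 2.04% lower. Nppa read 307, 2396, 778 and 151 CPM in KO MI and 110.2 to 207 in WT MI (log2 fold change 2.52, adjusted p = 0.0379). Its highest libraries, replicates 2 and 3, were not both high for the other 6 atrial markers, and without replicate 2 it was 1.38 (adjusted p = 0.165). Its call was also lost without WT MI replicate 3 or 4 (adjusted p of 0.124 and 0.121). Ankrd1, a stress-responsive gene of the cardiomyocyte, was higher by 1.101 (adjusted p = 0.0314). Without KO MI replicate 2 it was higher by 0.59 (adjusted p = 0.0295), and the call was lost with only the groups compared (adjusted p = 0.169) and with the skeletal muscle marker score in the fit (0.58, adjusted p = 0.510). The fetal genes therefore did not all move with Cacna1g.

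Of 15 transcription factors of the heart, 1 was higher and 1 lower in KO SH against WT SH (5.11% and 7.22% of all genes). In KO MI against WT MI 0 were higher and 1 lower (1.03% and 2.04% of all genes). None of these factors was a DEG in either comparison. Rest, a repressor of fetal cardiac genes, was higher in KO SH by 0.16 on the log2 scale (edgeR adjusted p = 0.0689, lost in 6 of 8 fits without 1 library), and Srf was lower by 0.34 (adjusted p = 0.0213). Mef2d was lower in KO MI by 0.34 (adjusted p = 0.0198). The EGR1 site was found upstream of Cacna1h, Cacnb3 and Rrad. Egr1 had log2 fold changes of -0.24 and -0.32 in the 2 KO comparisons, and Nkx2-5 0.13 and -0.12, none of which passed. In WT MI against WT SH 2 of the 15 were lower, Srf and Hand2 (2.21% of all genes were lower). The Srf call was kept in only 1 of 8 fits that left out 1 library (edgeR adjusted p up to 0.230). It was also lost with an Xist term (adjusted p = 0.199). Hand2, a factor of ventricle development, was a DEG. It read 42.2 to 56.7 CPM in WT SH and 31.6 to 33.7 in WT MI (log2 fold change -0.57, edgeR adjusted p = 0.00371).

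The protein-coding genes whose level was most like a pore gene over the 16 libraries were ranked by Pearson's r of log2(CPM + 0.5) among 12123 genes with a mean of at least 1 CPM. For Cacna1c they were Pde1c (r = 0.953), a calmodulin-dependent phosphodiesterase, Usb1 (0.942) and Calcoco1 (0.939). In KO MI replicate 7, where Cacna1c was highest, Pde1c read 155 CPM against 100.1 to 122.8 in the other 3. For Cacna1g they were Abca4 (0.913), Gabrg3 (0.911) and Trib2 (0.911). Abca4 read 4.06 to 6.12 CPM in WT SH and 11.5 to 15.3 in KO SH. Trib2 read 64.1 to 68.7 CPM in WT SH and 82.2 to 84.8 in KO SH. The 16 points of each r share the 4 groups, and each r describes these libraries only.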

How the data were processed

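Bulk RNA-seq of 16 ventricle libraries was analysed from 1 table of expected counts per gene, which the authors deposited as whole numbers. The study's methods give Skewer trimming, STAR alignment to GRCm39 and RSEM estimation from a stranded, ribosomal-RNA-depleted total RNA kit, whereas the submitters' processing notes name cutadapt 3.4, HISAT2 2.2.1 and RSEM 1.1.17, so the aligner is uncertain. RSEM shares out reads that fit several genes, and the values are per gene, so splice forms of a channel gene are summed. Of 51912 identifiers, 47772 matched GENCODE M39, which supplied symbols, coordinates and exon lengths.

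Counts were fitted with edgeR 4.0.16 (R 4.3.3; TMM, quasi-likelihood F-test, all 4 groups in 1 fit, no covariates) for genes whose counts summed to 10 or more within every group. A call is a Benjamini-Hochberg adjusted p under 0.1 over all genes, and a DEG also changed by 0.5 or more on the log2 scale, as in the study. CPM used TMM-scaled library sizes. Each of the 4 groups serves in 2 pairwise comparisons, which therefore share libraries. Alternatives were DESeq2 1.42.0, its size factors in edgeR, no filter, filterByExpr, only the groups compared, a replicate block, an Xist term, a skeletal muscle marker term, stricter thresholds and each library left out. Leaving out KO MI replicates 2 and 7 together was added after seeing the data.

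The 9 genes and all gene lists were chosen with earlier results of these data known. Named list members were the DEGs with the largest changes (up to 3 per list and KO comparison, mean at least 1 CPM), all 9 subunit genes, and the 3 genes most like Cacna1c and Cacna1g. Other list genes (Calm2, Calm3, Rem1, Akap5, Akap6, Nedd4l, Jph2, Actn2, Casq2, Atp2b1, Ryr2, Atp2a2, Cacna1a, Cacna1s and the transcription factors) were named after their values were seen. 1 gene of the regulator list is not reported here and is left out of its counts. Some genes stand in 2 lists (Nppa, Acta1, Tnnt2 and Actn2). The fit was tested on simulated counts.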

Additional observations from a re-analysis of the deposited data

Results flagged for a closer look

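Each gene was screened in each group of 4 libraries for 1 library far from the other 3 (Dixon's ratio), 36 screens in all, of which chance flags about 1 in 20. Of these, 2 were flagged. Cacna1h in KO MI stood out through replicate 7 at 15.9 CPM, where the other 3 libraries lay between 7.11 and 8.47. Cacna1d in WT MI stood out through replicate 3 at 10.3 CPM, where the other 3 lay between 7.62 and 8.06. Leaving out WT MI replicate 3 changed no call of Cacna1d.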

How the results depend on the processing

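Of the alternative fits of the 9 genes, 718 values kept their direction and their side of the threshold, 36 lost a call, 10 gained one and 46 turned sign. Those that turned sign were all differences not called with all libraries. The Cacna1g rise in both KO comparisons, the Cacnb2 rise in KO SH and the Cacna1h rise in WT MI passed in every alternative fit, each library left out included.

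In KO SH against WT SH, 4 genes were called, 2 at an adjusted p under 0.05, 2 by the DEG rule and 2 to 3 with 1 library left out. Of all genes, 12.3% were called, 5.01% by the DEG rule and 6.93% to 14.1% with 1 library left out. All genes were not counted at an adjusted p under 0.05. For KO MI against WT MI, 2 were called, and 1 with no filter, with only the groups compared, with an Xist term, with a skeletal muscle marker term, under 0.05 or by the DEG rule, and 1 to 2 with 1 library left out. The shares of all genes there were 3.07% with all libraries, 2.25% with no filter, 1.26% with only the groups compared and 3% with the Xist term. They were 0.918% with the skeletal muscle term, 1.73% by the DEG rule and 1.73% to 6.13% with 1 library left out. From KO SH to KO MI, 3 were called, 0 by the DEG rule or with the skeletal muscle term, and 1 to 4 with 1 library left out. The calls over all genes moved as well, from 17.5% to 1.47% with the skeletal muscle term and to 9.41% to 27.9% with 1 library left out. By the DEG rule 7.42% of all genes passed. For the interaction 0 were called, 2 with a replicate block, 1 without KO MI replicates 2 and 7, and 0 to 1 with 1 library left out. Those fits called 0.0248%, 7.36%, 3.89% and 0.00992% to 9.02% of all genes, in the same order.

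The replicate numbers were not shown to pair the libraries. Deviations from the group means correlated by -0.131 to 0.175 between same-numbered libraries (21 pairs) and by -0.147 to 0.185 between others. For KO SH with KO MI these ranges were 0.039 to 0.137 and -0.137 to 0.086, and for WT SH with KO MI -0.110 to 0.047 and -0.068 to 0.112. With 3 such pairs in each, overlapping ranges cannot exclude a pairing. With a replicate block, which leaves KO MI replicate 7 in a block of its own, Cacna1h was lower in KO MI against WT MI (edgeR adjusted p = 0.0122), the interaction passed for Cacna1h (adjusted p = 0.00246) and Cacna1c (adjusted p = 0.0915) where the block raised the calls over all genes from 5 to 1483, the Cacnb1 call was lost (adjusted p = 0.162) and Cacna1c fell from KO SH to KO MI (adjusted p = 0.000593), where 25.2% of all genes were called. Under the block, sign turned for Cacna1c (-0.17), Cacna1d (-0.049) and Cacna2d2 (0.20) in KO MI against WT MI, and for Cacna1h (-0.12) and Cacna2d1 (0.0062) in KO MI against KO SH.

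Sign also turned, on the log2 scale, in these fits. With an Xist term, Cacna2d1 was -0.048 and Cacna2d2 0.037 in KO SH against WT SH, and Cacna2d2 0.042 in KO MI against WT MI. With the skeletal muscle term, Cacna1c was -0.038 and Cacna2d2 0.34 in KO MI against WT MI, and Cacna1h -0.34 and Cacnb1 -0.051 in KO MI against KO SH. With KO MI replicates 2 and 7 left out, Cacna1c was -0.051 and Cacna2d2 0.33 in KO MI against WT MI, and Cacna1h -0.20 in KO MI against KO SH. With DESeq2 size factors, Cacna2d2 was 0.00040 in KO MI against WT MI.

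With 1 library left out, the ranges that crossed 0 were, in KO SH against WT SH, Cacnb1 -0.0045 to 0.10 and Cacna2d2 -0.34 to 0.045. For KO MI against WT MI they were Cacna1c -0.16 to 0.21, Cacna1d -0.057 to 0.16, Cacna1h -0.45 to 0.0094 and Cacna2d2 -0.18 to 0.34. For WT MI against WT SH they were Cacna1g -0.15 to 0.0074, Cacnb3 -0.042 to 0.084 and Cacna2d2 -0.30 to 0.21. For KO MI against KO SH they were Cacna1h -0.11 to 0.35, Cacna2d1 -0.10 to 0.031 and Cacna2d2 -0.014 to 0.37. For the interaction they were Cacna1c -0.33 to 0.040, Cacna2d1 -0.0020 to 0.12 and Cacna2d2 -0.067 to 0.46. The cause was not tested in any of these fits.

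CPM on the raw total count moved 7 mean levels by over 1 SD, to 357.9 for Cacna1c and 71.0 for Cacna1g in KO SH, to 7.19 for Cacna1d, 35.3 for Cacna1g, 96.5 for Cacnb2 and 124.0 for Cacna2d1 in WT SH, and to 6.69 for Cacnb3 in KO MI. Cacng6 is limited by its low counts, and Cacna2d2 by its spread between libraries as well as by low counts.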
